A study of Mus musculus with 16 samples.

Results

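The genes described here encode 10 small calcium-binding, membrane-binding, sugar-binding and cytoskeletal proteins of mobile myeloid cells, chosen by name out of 18580 genes to which the transcripts of the tables were summed. They are S100a4, S100a6, S100a10 and S100a11, the annexins Anxa1, Anxa2 and Anxa5, the galectins Lgals1 and Lgals3, and the intermediate filament gene Vim. Their expression was measured by SMART-seq2, an RNA-seq method made for scarce RNA that reads whole transcripts, in brain immune cells of mice that carried the CD163tm1.1(KOMP)Vlcg deletion (CD163KO) and of their C57BL/6N littermates (WT). The mice were 12 weeks old at surgery and received α-syn pre-formed fibrils (PFF) or, as the control, monomeric α-syn (MONO) in both striata, and their brains were taken 2 months later. WT groups had 7 mice for each sex and treatment, female CD163KO groups 5, male CD163KO PFF 5 and male CD163KO MONO 4. Cells positive for CD11b were sorted into microglia, with low or intermediate CD45, and macrophages, with high CD45, a gate that by the study's own account takes in neutrophils and NK cells beside the macrophages of the brain borders and those that infiltrate. A single table was analysed for each combination of population, sex, genotype and treatment, which gives 8 libraries per population. The study left out male CD163KO MONO for discordant technical replicates, so the main values come from 7 libraries per population. It also corrected for batch and removed outlier samples in both populations. Whether any table used here is among those outliers is not given in the sources used here. The mice came in 2 batches. Which batch a library came from, and whether a table is 1 of the sequenced triplicates or holds their pooled reads, is not given in the sources used here, and all p-values measure only the spread between these libraries.

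S100 proteins are small calcium sensors that change shape on binding calcium and then dock onto other proteins. S100a10 is the exception in that it no longer needs calcium, and it forms a complex with annexin A2 on the inner face of the plasma membrane. Annexins bind acidic phospholipids in the presence of calcium, and annexin A1 is in addition a secreted ligand of formyl peptide receptors that is stored in large amounts in neutrophils. Galectins bind β-galactoside sugars and are released by an unusual route, and galectin-3 in particular is known from phagocytes and activated microglia. Vimentin filaments give migrating cells their mechanical strength. In the brain, resting microglia are known for low levels of many of these proteins, and monocytes, neutrophils and macrophages for high levels.

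The genes lie in GRCm38.p6 at chr3:90603770-90606045 (S100a4), chr3:90612894-90614414 (S100a6), chr3:93520496-93526288 (S100a11), chr3:93555117-93564645 (S100a10), chr3:36448923-36475887 (Anxa5), chr19:20373434-20390671 (Anxa1), chr9:69453683-69491792 (Anxa2), chr15:78926725-78930465 (Lgals1), chr14:47373860-47386167 (Lgals3) and chr2:13574311-13582826 (Vim). The members with the S100 fold are thus neighbours in pairs on chromosome 3. RefSeq promoter sequences were at hand for 8 of the 10 genes, all but S100a10 and Lgals1, and the 250 bases before the start were searched on both strands for the letters of 4 motifs. These were TATAAA for the core promoter box, then TGANTCA for the AP-1 factors, then GGGCGG for the GC box, and lastly GAGGAA for PU.1, a master regulator of the myeloid lineage. The sequences of S100a4, S100a11, Anxa2 and Vim are printed because they cover wide (S100a4, S100a11, Anxa2) and narrower (Vim) differences between the populations. They run 5′ to 3′ on the strand of the gene and end at the base before the start, with matches in capitals, and no base belongs to matches of more than 1 motif.

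S100a4, chr3:90603520-90603769, plus strand: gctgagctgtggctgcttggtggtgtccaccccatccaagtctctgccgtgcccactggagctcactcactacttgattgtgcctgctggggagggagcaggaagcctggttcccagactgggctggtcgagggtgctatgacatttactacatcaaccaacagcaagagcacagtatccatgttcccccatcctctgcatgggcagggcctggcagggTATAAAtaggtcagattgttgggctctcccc
S100a11, chr3:93520246-93520495, plus strand: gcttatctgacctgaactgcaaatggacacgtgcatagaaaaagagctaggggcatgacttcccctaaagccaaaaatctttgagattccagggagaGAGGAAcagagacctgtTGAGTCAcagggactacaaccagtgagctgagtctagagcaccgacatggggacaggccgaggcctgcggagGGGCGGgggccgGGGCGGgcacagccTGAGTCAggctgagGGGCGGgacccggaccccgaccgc
Anxa2, chr9:69453433-69453682, plus strand: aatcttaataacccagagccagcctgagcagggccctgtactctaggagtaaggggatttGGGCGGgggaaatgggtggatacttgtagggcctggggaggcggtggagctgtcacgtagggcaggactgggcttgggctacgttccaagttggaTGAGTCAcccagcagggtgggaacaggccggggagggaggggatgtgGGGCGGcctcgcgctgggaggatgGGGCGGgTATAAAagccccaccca
Vim, chr2:13574061-13574310, plus strand: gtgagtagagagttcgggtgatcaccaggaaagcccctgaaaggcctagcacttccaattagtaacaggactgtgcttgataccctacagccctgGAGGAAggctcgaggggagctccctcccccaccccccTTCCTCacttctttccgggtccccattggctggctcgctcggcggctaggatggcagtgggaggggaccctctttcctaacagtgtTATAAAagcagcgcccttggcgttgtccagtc

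A TATA box stood 32 to 12 bases before the start in 4 of the 8 members (S100a4, Anxa1, Anxa2 and Vim), against 12.4% of 32851 RefSeq mouse promoters that hold one anywhere in the same 250 bases. AP-1 letters were present in 2 members (Anxa2 and S100a11), against 6.75% of promoters. The GC box was found in 3 (Anxa2, S100a11 and Lgals3), against 32.7% of promoters, and the PU.1 letters in 3 (Vim, S100a11 and Anxa1), against 23.3%. S100a6 and Anxa5, which differ widely in the size of their difference between populations, held none of these letters. These matches describe the letters of the windows alone.

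Total estimated counts were 8648751 to 21433841 per library. The labels were checked first: homeostatic microglia genes, 12 in number, summed to 38606 to 85267 CPM (counts scaled to the depth of the library) in microglia and 1923 to 3706 CPM in macrophages, and 10 of the 12 were lower in macrophages by the test used below. Border-associated macrophage genes were higher in macrophages for 9 of 10, monocyte genes for 9 of 10 and neutrophil genes for 11 of 12. Cd163, the deleted gene, had 748 to 5275 counts in the 4 WT macrophage libraries and 0 or 1 in the CD163KO ones, but 5 to 23 counts in microglia labelled CD163KO and 0 to 101 in WT microglia. The Y-linked genes matched the labelled sex except in the library labelled female CD163KO MONO microglia, which held 49.0 CPM of them. The libraries of male WT PFF and male CD163KO MONO stood apart from the rest. Their 10 most abundant transcripts took 15.4% of the counts in both macrophage libraries, against 38.0% to 60.4% in the other macrophages, and 57.2% and 46.0% in the microglia libraries, against 13.4% to 16.1% in the other microglia.

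The 10 genes together took 0.11% to 0.49% of the counts of the 7 macrophage libraries and 0.00359% to 0.0222% of those of the 7 microglia libraries. Every one was higher in macrophages. The comparison set the 7 macrophage libraries against the microglia libraries of the same sex, genotype and treatment (edgeR's quasi-likelihood test on TMM-scaled counts with Benjamini-Hochberg adjustment), and all 10 passed the filter on low counts and had an adjusted p below 0.05. Among all 10987 genes tested, 14.3% were called higher and 8.46% lower. The median difference of the 10 members was 6.40 on the log2 scale and that of all genes tested was -0.28. Scaling libraries by their size alone lowered both, to 4.90 and -1.94, kept all 10 members called higher, and turned the calls among all genes from 1571 higher and 930 lower to 480 higher and 5415 lower. Each member was higher in macrophages in 7 of 7 pairs of libraries by FPKM, counts scaled to transcript length and depth, which is the scale of the levels given here unless CPM is named. In 9 of the 10, every macrophage library lay above every microglia library, against 2.75% of the genes tested. A difference of this kind cannot tell more RNA per cell from more cells that hold it, since the macrophage gate mixes cell types.

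**Figure D1:**
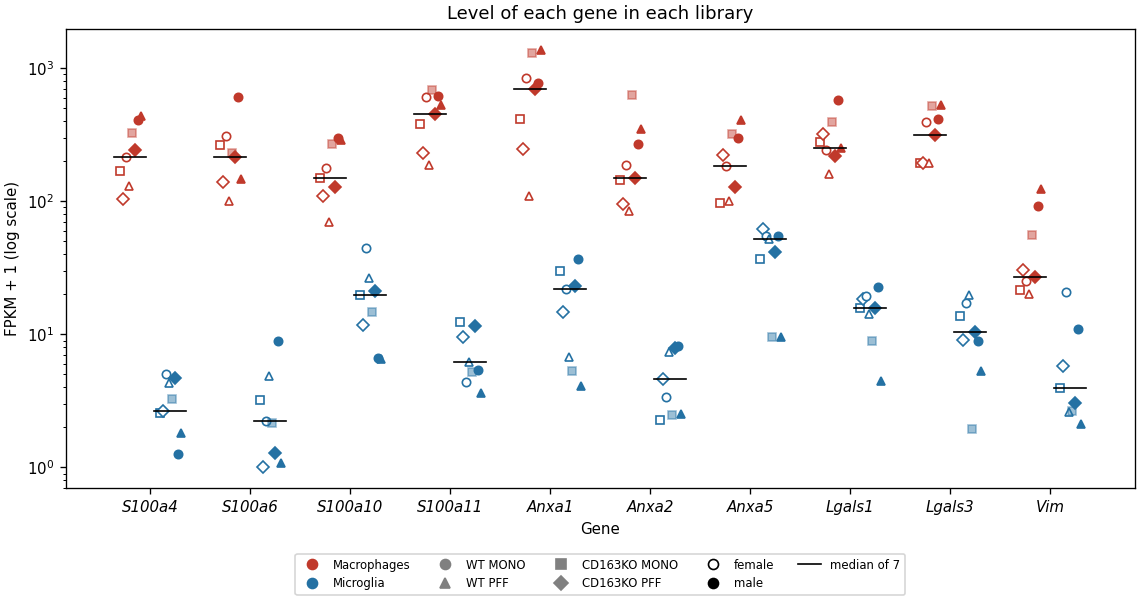
FPKM + 1 on a log axis for each gene in each library, macrophages in red and microglia in blue. Shapes give genotype and treatment, open symbols are females, filled symbols males, faint symbols the male CD163KO MONO libraries left out of the main values, and black bars the medians of the other 7. All genes but Vim have macrophage libraries clear of the microglia libraries.

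Among the S100 genes, S100a4, whose protein binds non-muscle myosin and is a marker of motile cells, had 104 to 439 FPKM in macrophages with a median of 214. In microglia it had 0.26 to 4.08 FPKM with a median of 1.66, and the counts behind these values were 1 to 27. The fitted difference was 8.22 ± 0.51 on the log2 scale (SE, 7 pairs, edgeR adjusted p = 4.02e-06). S100a6, calcyclin, had 100.5 to 611 FPKM in macrophages with a median of 214 as well. Its 7 microglia libraries held 0 to 45 counts, a median of 1.22 FPKM and at most 7.91, and in 3 of the 7 it was at or under the limit of 3 counts taken as not detected, with 0 counts in female CD163KO PFF (where 3 counts correspond to 0.175 CPM), 1 in male WT PFF and 3 in male CD163KO PFF. S100a4 had 1 count in male WT MONO. The difference of 9.20 ± 0.77 (edgeR adjusted p = 2.02e-05) was the widest of the 10 and had the largest SE, and its size is uncertain with so few counts in microglia. S100a11, which binds annexin A1, was the most abundant of the 4 in macrophages, with 188 to 617 FPKM and a median of 452, and had 2.63 to 11.4 FPKM in microglia with a median of 5.22. It differed by 7.47 ± 0.44 (edgeR adjusted p = 2.83e-06). S100a10, the partner of annexin A2, was the S100 gene with the highest level in microglia, 5.49 to 43.3 FPKM with a median of 18.7, and had 69.15 to 299 FPKM in macrophages with a median of 149. Its difference was 4.77 ± 0.41 (edgeR adjusted p = 2.22e-05), and its highest microglia library, female WT MONO, came close to its lowest macrophage library, female WT PFF.

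Of the annexins, Anxa1, the formyl peptide receptor ligand, had the highest median of all members in macrophages, 702 FPKM, and the widest range, from 108 FPKM in female WT PFF to 1376 in male WT PFF. In microglia it had 3.10 to 35.8 FPKM with a median of 21.0. The difference was 6.51 ± 0.34 (edgeR adjusted p = 1.55e-06). Anxa2, which with S100a10 binds plasminogen and its activator at the cell surface, had 83.1 to 347 FPKM in macrophages with a median of 149.6 and 1.29 to 7.21 FPKM in microglia with a median of 3.62. It differed by 6.92 ± 0.42 (edgeR adjusted p = 4.02e-06). Anxa5, the phosphatidylserine binder used to stain dying cells, was the member with the highest median in microglia. Its 50.98 FPKM there, with a range of 8.57 to 61.5, stood against 185 FPKM in macrophages with a range of 97.0 to 409.8. The difference of 3.65 ± 0.19 was the narrowest of the 10 and carried the smallest SE (edgeR adjusted p = 1.55e-06).

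Lgals1, a dimer-forming galectin, had 161 to 576 FPKM in macrophages with a median of 249.8 and 3.44 to 21.9 FPKM in microglia with a median of 14.9. Its difference was 5.78 ± 0.29 (edgeR adjusted p = 1.5e-06). Lgals3, the galectin with a collagen-like tail, had 192 to 531 FPKM in macrophages with a median of 314 and 4.34 to 18.8 FPKM in microglia with a median of 9.38. The difference was 6.29 ± 0.31 (edgeR adjusted p = 1.46e-06). Lgals3 was the single member with 2 transcripts in the tables, and RSEM divided reads between them, whereas the counts of the other 9 genes were whole numbers. Vim was the least abundant member in macrophages, with 19.1 to 123 FPKM and a median of 26.1, and had 1.11 to 19.7 FPKM in microglia with a median of 2.94. It was also the one member whose FPKM overlapped between the populations, since female WT MONO microglia (19.7) lay above female WT PFF macrophages (19.1). On TMM-scaled CPM its libraries did not overlap, as for all 10 members, against 9.33% of genes on that scale. The difference of Vim was 4.74 ± 0.53 (edgeR adjusted p = 0.000125).

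The order of the median levels differed between the populations, although most neighbours in it were not separated. In macrophages the order was Anxa1, S100a11, Lgals3, Lgals1, S100a4, S100a6, Anxa5, Anxa2, S100a10 and Vim. Of its 9 steps, 1 was the same in 7 of 7 libraries, that from S100a10 to Vim. Anxa1 was above S100a11 in 6 of 7 libraries, and S100a4 above S100a6 in 3 of 7. In microglia the order was Anxa5, Anxa1, S100a10, Lgals1, Lgals3, S100a11, Anxa2, Vim, S100a4 and S100a6, and again 1 of 9 steps, from Anxa5 to Anxa1, was the same in 7 of 7 libraries. Anxa1 was above S100a10 in 4 of 7 microglia libraries.

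The level left in microglia, as a percentage of the median FPKM in macrophages, was 0.776% for S100a4, 0.571% for S100a6, 1.16% for S100a11, 2.42% for Anxa2, 2.98% for Lgals3, 2.99% for Anxa1, 5.96% for Lgals1, 11.2% for Vim, 12.6% for S100a10 and 27.6% for Anxa5. Those of S100a4 and S100a6 rest on at most 45 counts in a microglia library. The percentages depend on the scaling. On TMM-scaled CPM they were 1.74 to 4.39 times lower, from 0.13% for S100a6 to 4.05% for S100a10, 4.11% for Vim and 8.22% for Anxa5. For genes taken as markers of the other cells of the macrophage gate, the percentage by FPKM was below 10% for 10 of 12 neutrophil genes, 8 of 10 monocyte genes and 8 of 10 genes of border-associated macrophages, with medians of 2.33%, 2.14% and 1.65% (1.03%, 0.619% and 0.547% on TMM-scaled CPM). It was 0.424% for Ly6g and 5.16% for the granule gene Camp (neutrophils), 0.605% for Ly6c2 (monocytes) and 0.945% for Pf4 (border-associated macrophages). The exceptions were Csf3r (858%) and Cxcr2 (42%) among neutrophil genes, Vcan (100%) and Itga4 (34.9%) among monocyte genes, and Stab1 (89.9%) and Lyve1 (10.7%) among those of border-associated macrophages. Csf3r, the receptor of granulocyte colony-stimulating factor, was lower in macrophages (-1.16 ± 0.22, edgeR adjusted p = 0.00302) and made up 33.8% to 74.0% of the summed level of the neutrophil list in microglia, against 0.402% to 3.97% in macrophages. The other 11 neutrophil genes summed to 287 to 744 CPM in microglia and to 2934 to 22582 CPM in macrophages. The monocyte list summed to 16.6 to 159 CPM in microglia and 535 to 2915 CPM in macrophages. What part RNA of these cells has in the microglial levels of the 10 genes was not tested.

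**Figure D2:**
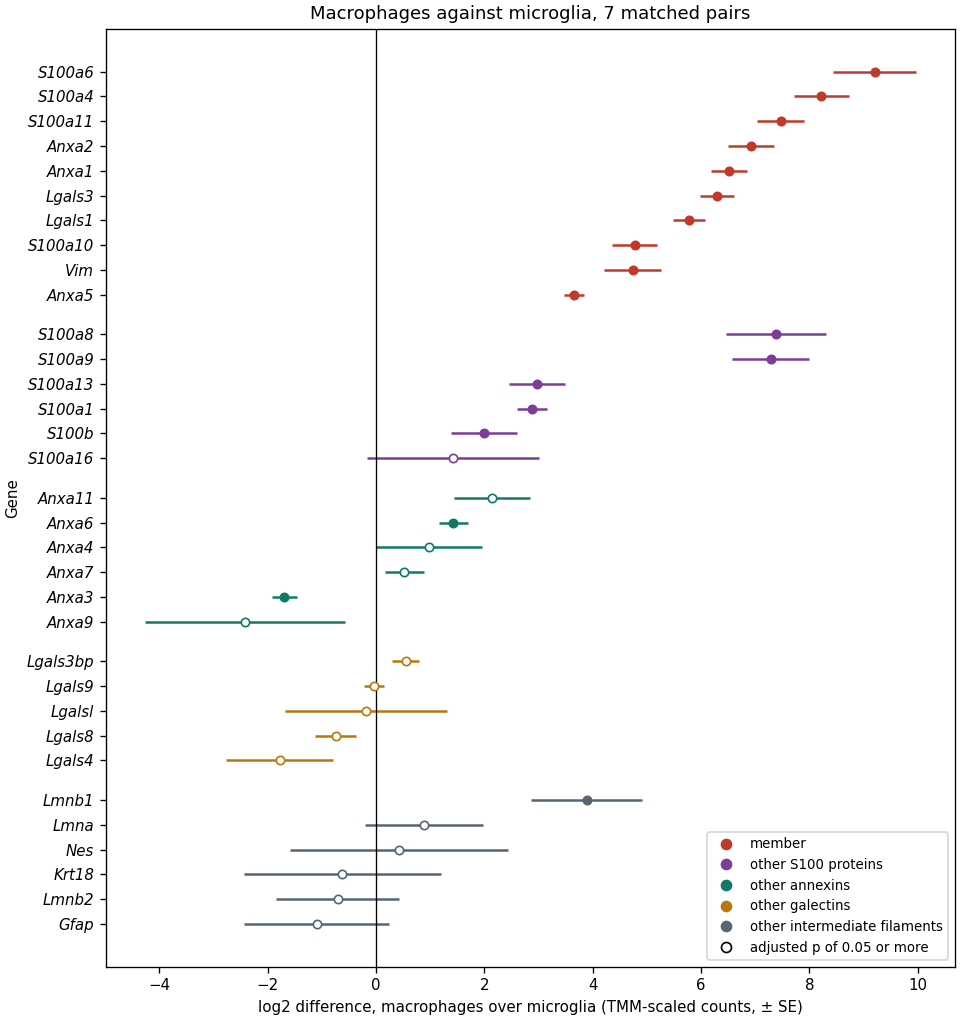
Difference between macrophages and microglia on the log2 scale (TMM-scaled counts, 7 pairs of libraries, bars ± SE) for the 10 genes and for the other tested genes of their families. Open symbols have an adjusted p of 0.05 or more. All 10 members lie between 3.65 and 9.20, and of the other annexins, galectins and intermediate filament genes Lmnb1 (3.89) lies in that range and the rest lie below it.

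The relatives of the 10 genes gave fewer calls. Of the other S100 genes, 6 of the 12 listed had enough counts to be tested, 5 were called higher in macrophages and none lower. S100a8 and S100a9, the subunits of calprotectin, differed by 7.38 ± 0.92 and 7.28 ± 0.71, and were far more abundant than any member, with median levels of 73473 and 15638 FPKM in macrophages. S100a13, which takes part in the release of growth factors, differed by 2.97 ± 0.51 and S100a1, known from muscle, by 2.88 ± 0.27. S100b, an astrocytic gene with 6.31 FPKM in macrophages and 3.86 in microglia, differed by 2.00 ± 0.60 with TMM scaling (edgeR adjusted p = 0.0371) and was not called when libraries were scaled by their size alone (0.61, adjusted p = 0.55). Of the 9 other annexins, 6 were tested. Anxa3 was lower in macrophages, by -1.69 ± 0.22 (edgeR adjusted p = 0.000385), with a median of 40.05 FPKM there and 398 FPKM in microglia. Anxa6 was called higher with TMM scaling (1.43 ± 0.26) but not by library size alone, where its sign turned (-0.09). By that scaling 2 annexins were called, both lower, Anxa3 and Anxa9 (-4.02, edgeR adjusted p = 0.0247). None of 5 galectins tested was called in the edgeR test, and Lgals9 had a median of 269 FPKM in microglia and 75.4 in macrophages. By library size alone 3 of the 5 were lower in macrophages, Lgals4 (-3.49, edgeR adjusted p = 0.00382), Lgals8 (-2.51, adjusted p = 0.00637) and Lgals9 (-1.52, adjusted p = 0.0149), which stood at -1.78, -0.74 and -0.03 with TMM scaling. Among 6 tested intermediate filament genes, the lamin gene Lmnb1 was higher (3.89 ± 1.03, edgeR adjusted p = 0.02) with a median of 2.09 FPKM in macrophages, and was not called by library size alone (2.58, adjusted p = 0.072), where Lmnb2 was lower (-2.45, adjusted p = 0.0432). S100b, Anxa9, Lgals4, Lgals8, Lgals9, Lmnb1 and Lmnb2 are named here because of their values.

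Binding partners and receptors of these proteins gave calls in both directions, 7 higher and 4 lower in macrophages of 18 tested. By library size alone the split was 5 higher and 6 lower. Cacybp and Ptprc, called higher with TMM scaling (1.14 and 0.94), were then at -0.46 and -0.74 with no call, and Bsg and Itgb1, at 0.39 and 0.24 with TMM scaling and not called, were lower (-1.01 and -1.35, edgeR adjusted p = 0.0393 and 0.0474). These 4 are named because of their values. The formyl peptide receptor genes Fpr1 and Fpr2, which encode the receptors of annexin A1, were higher by 10 ± 1.14 and 6.95 ± 1.12. Fpr1 had 9.88 to 195 FPKM in macrophages and a median of 0 in microglia. Ahnak, whose giant product binds the complex of annexin A2 and S100a10, was higher by 7.16 ± 0.75, and Cd44, a surface receptor linked to the cytoskeleton, by 5.38 ± 0.54. Mertk and Lrp1, receptors for the uptake of dying cells and debris, were lower in macrophages by -3.10 ± 0.24 and -2.40 ± 0.28. Havcr2, which binds phosphatidylserine and galectin-9, was lower by -2.46 ± 0.26, and Trem2, reported as a partner of galectin-3, by -1.64 ± 0.32. Mertk had a median of 147 FPKM in microglia and 5.20 in macrophages. Mertk, Lrp1, Havcr2 and Trem2 thus ran opposite to the 10 members, and their signs and those of Fpr1, Fpr2, Ahnak and Cd44 were the same with TMM, RLE or library size scaling and on log2(FPKM + 1).

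Treatment was compared next, with sex and genotype in the model, to ask whether the fibrils left a trace in these genes at 2 months. In macrophages, none of the 10 was called between PFF and MONO (edgeR, lowest adjusted p = 0.9999), where 0% of 11115 genes were called. Their differences ran from -1.12 to 0.28 with SEs of 0.31 to 0.57 and a median of -0.34, beside a median of -0.11 for all genes. Fitted values were lower with PFF for 11 of 12 neutrophil genes, with a median of -0.71, and for 9 of 10 monocyte genes, with a median of -0.49. Genes of border-associated macrophages had 6 of 10 higher with PFF and a median of 0.13, and those of dendritic cells 3 of 7 and a median of -0.01. None of these genes was called, and their part in the values of the members was not tested. With SEs of this size, a modest change cannot be told from none. S100a6 came closest. Its MONO libraries had 309.6 FPKM in female WT, 611 in male WT and 264 in female CD163KO, and its PFF libraries 100.5, 145, 138 and, in male CD163KO, 214. Every PFF library lay below every MONO library, as for 6.26% of the genes tested, and the fitted difference was -1.12 ± 0.50 (edgeR unadjusted p = 0.0572). With male CD163KO MONO added, at 229.5 FPKM, the difference was -0.70 ± 0.62. Anxa1 followed no such order, with 848, 773 and 418 FPKM under MONO and 108, 1376, 247 and 702 FPKM under PFF.

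In microglia, none of the 10 was called for treatment either (edgeR, lowest adjusted p = 0.764), where 0% of 11738 genes were called, and the differences ran from -2.20 to 1.07 with SEs of 0.30 to 2.19. Of the 10, 6 were higher with PFF, with a median of 0.20 beside 0.11 for all genes. Over the other ways of fitting that median of the members ran from -0.35 to 0.30. In all 15 ways 5 of the 10 kept their sign. The TMM factor of male WT PFF was 0.259, against 1.23 to 1.31 in the other microglia libraries. Fitted values were lower with PFF for 6 of 9 genes of border-associated macrophages (median -0.81), 5 of 6 monocyte genes (-0.34) and 8 of 8 choroid plexus genes (-0.66), and higher for 12 of 12 homeostatic microglia genes (0.59) and 6 of 10 neutrophil genes (0.18). None of these was called, and their part in the values of the members was not tested. Anxa1 had the smallest p of the 10. Its MONO libraries had 21.0 FPKM in female WT, 35.8 in male WT and 29.0 in female CD163KO, and its PFF libraries 5.82, 3.10, 13.9 and, in male CD163KO, 21.9. It was lower with PFF in 3 of 3 matched pairs, and the groups overlapped by the value of male CD163KO PFF. The fitted difference was -1.38 ± 0.38 (edgeR unadjusted p = 0.00537, adjusted p = 0.764). Without the male WT PFF library, which stood apart, it was -1.45 ± 0.43, and without the female CD163KO MONO library, which held Y-linked counts, it was -1.46 ± 0.56. Male CD163KO MONO, the excluded group, had 4.30 FPKM, and with it the difference was -0.87 ± 0.51. Over all 15 ways of fitting, the adjusted p of Anxa1 was 0.0943 or more, the lowest being that of DESeq2.

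**Figure D3:**
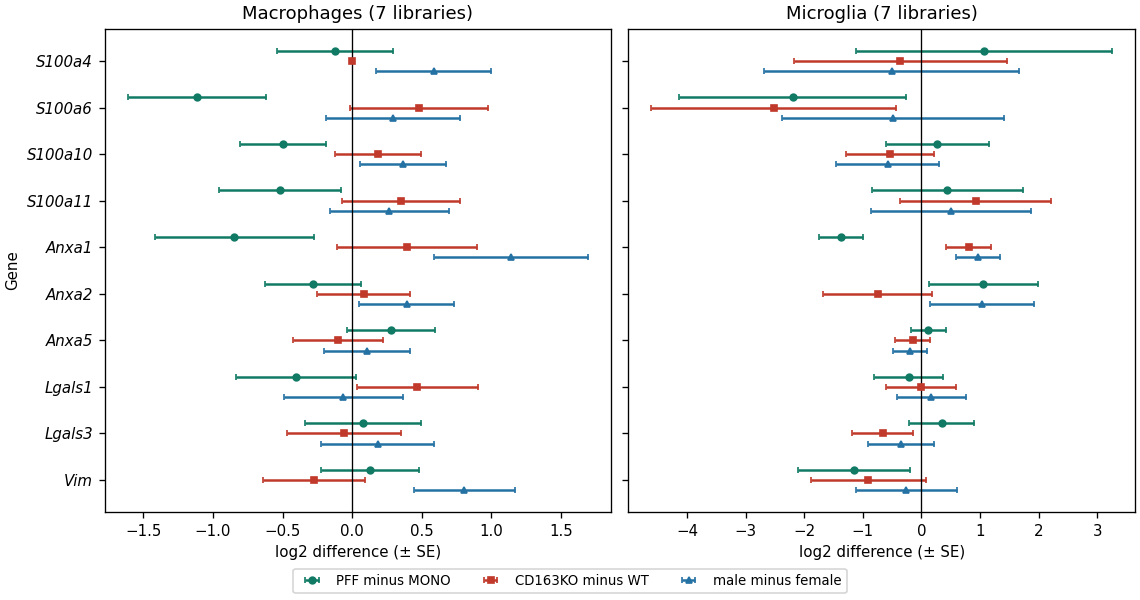
Differences between treatments, genotypes and sexes on the log2 scale (TMM-scaled counts, ± SE) in the 7 macrophage libraries (left) and the 7 microglia libraries (right), on axes of different width. No difference passed the test. The SE of S100a4 between genotypes in macrophages could not be computed, because the difference was 0.00, and it has no bar.

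Between CD163KO and WT, again none of the 10 genes was called. In macrophages the differences between genotypes ran from -0.28 for Vim to 0.48 for S100a6, with SEs of 0.31 to 0.51, 7 of 10 were positive with a median of 0.13 beside 0.15 for all genes, and the lowest adjusted p was 1 (edgeR). Of 11115 genes tested, 0.009% were called, namely Cd163 itself, which was lower. Border-associated macrophage genes, which include Cd163, were positive for 9 of 10 (median 0.34), neutrophil genes for 8 of 12 (0.28) and monocyte genes for 7 of 10 (0.26). Endothelial genes had 1 of 5 positive (-1.85), choroid plexus genes 2 of 8 (-1.445) and fibroblast and pericyte genes 2 of 6 (-1.71). Oligodendrocyte genes had 0 of 6 (-0.76) and erythroid genes 0 of 4 (-1.32). Their part in the values of the members was not tested. Signs depended on the way of fitting, and 1 of the 10 members kept its sign in all 15 ways. The median of the 10 ran from -0.36 to 0.40 over the other ways of fitting. S100a4 also depended on the scale. Its FPKM was lower in CD163KO in 3 of 3 matched pairs (169.3 against 214, 104 against 130.0 and 243.5 against 439). Its fitted difference on TMM-scaled counts was 0.00. In microglia the differences ran from -2.52 for S100a6 to 0.93 for S100a11 with SEs of 0.31 to 2.09, 2 of 10 (S100a11 and Anxa1) were positive with a median of -0.45 beside -0.02 for all genes, and the lowest adjusted p was 0.9998 (edgeR), with 0% of genes called. Genes of border-associated macrophages were positive for 1 of 9 with a median of -0.94 and homeostatic microglia genes for 0 of 12 with a median of -0.49, while neutrophil genes had 3 of 10 and -0.14, and the part of these in the values of the members was not tested. Over the other ways of fitting the median of the 10 members in microglia ran from -0.68 to 0.21. In all 15 ways 4 of the 10 kept their sign. The -2.52 of S100a6 rests on libraries with 0 to 45 counts. S100a11 had 11.4, 8.57 and 10.6 FPKM in the CD163KO libraries and 3.38, 5.22, 4.44 and 2.63 in the WT libraries, which did not overlap, as for 3.4% of genes. These FPKM rest on 13 to 85 counts, its fitted difference was 0.93 ± 1.28, and the male CD163KO MONO library that was left out, at 4.22 FPKM, lay among the WT values. Anxa1 had a difference of 0.80 ± 0.38 (edgeR unadjusted p = 0.0629). No interaction of treatment and genotype was called among the 10 genes in macrophages (SEs of 0.79 to 1.23) or in microglia (SEs of 0.59 to 5.79), where 0% of genes were called.

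Males and females were compared in the same models. None of the 10 genes was called in macrophages or in microglia (edgeR, lowest adjusted p = 0.9999 in both), and 0% of genes were called in either. In macrophages 9 of the 10 fitted differences had males higher, with a median of 0.33 beside -0.16 for all genes. The neutrophil genes had males higher in 12 of 12 with a median of 0.83 and the monocyte genes in 8 of 10 with a median of 0.62, whereas genes of border-associated macrophages had males higher in 3 of 10 with a median of -0.10. Every gene tested of 7 further lists had a lower fitted value in males. Medians were -4.06 for 8 choroid plexus genes, -1.34 for 6 astrocyte, -1.43 for 6 oligodendrocyte and -1.64 for 5 endothelial genes. They were -1.25 for 4 erythroid, -1.48 for 3 pituitary and -0.57 for 12 homeostatic microglia genes. None of these genes was called, and their part in the values of the members was not tested. S100a4 had 408, 439 and 244 FPKM in males and 104, 130.0, 169 and 214 FPKM in females, which did not overlap, as for 2.04% of genes, and a fitted difference of 0.59 ± 0.41. Anxa1 had a difference of 1.14 ± 0.56 and Vim one of 0.81 ± 0.36 (edgeR unadjusted p = 0.0764 and 0.0592). Vim had 91.1 and 123 FPKM in WT males and 26.1 in male CD163KO PFF, against 19.1 to 29.5 in females. The male CD163KO MONO library that was left out had 54.5 FPKM, above every female. The male WT PFF library, the one that stood apart, was the highest of the 7 in 6 of the 10 genes, and without it the differences of Anxa1 and Vim were 1.05 ± 0.55 and 0.82 ± 0.37. In microglia 4 of the 10 had males higher, with a median of -0.22 beside 0.01 for all genes, and Anxa1 had a difference of 0.96 ± 0.38 (edgeR unadjusted p = 0.0305), and by FPKM males were higher in 2 of 3 pairs. The female side holds the CD163KO MONO library with 49.0 CPM of Y-linked genes, more than the 23.1 CPM of male WT PFF, and without it the difference was 0.93 ± 0.44. The neutrophil genes tested in microglia had males higher in 8 of 10 with a median of 1.36, and the monocyte genes in 3 of 6 with a median of -0.01.

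How far the 10 genes vary together between macrophage libraries depended on the scale. Pearson's r of log2(FPKM + 1) over the 7 libraries was positive for 45 of the 45 pairs of members, with a median of 0.76 and a range of 0.22 to 0.97. Among all pairs of the 2612 genes with a median of at least 10 FPKM it was positive for 78.7%, with a median of 0.57. On TMM-scaled CPM, where the scaling factors of these libraries ran from 0.532 to 2.2, it was positive for 32 of the 45 pairs of members with a median of 0.41, and for 52.5% of all pairs with a median of 0.04. In microglia 40 of 45 pairs of members were positive by FPKM with a median of 0.39, below the 94.2% and the median of 0.80 of all pairs there. On TMM-scaled CPM 21 of 45 were positive with a median of -0.01, beside 51.2% and a median of 0.02 for all pairs. All these values share the libraries and their depth. The female WT PFF library was the lowest macrophage library for 7 of the 10 genes. It also had the lowest summed levels of the neutrophil list (2972 CPM, against 4800 to 22695 CPM in the other 6) and of the monocyte list (535 CPM, against 874 to 2915 CPM), of border-associated macrophages (2095 CPM, against 2438 to 7399 CPM), of dendritic cells (889 CPM, against 936 to 2370 CPM) and of NK, T and B cells (53.0 CPM, against 78.3 to 232.5 CPM). Its endothelial list was the highest (188 CPM, against 11.1 to 91.7 CPM), and its 10 most abundant transcripts took 60.4% of its counts. None of the 12 neutrophil genes was at 0 in any macrophage library. The genes most like each member by FPKM, a scale on which most pairs of genes are positive, differed from member to member. Those of Anxa1 were Cyb5r4 (r = 0.99), Lcn2 (0.97) and Hp (0.97), and those of S100a11 were Wfdc21 (0.98), Camp (0.97) and Glipr2 (0.97). Lcn2 and Camp are granule genes and belong to the neutrophil list used here. For Anxa2 the nearest gene was Ifi30 (0.997), a lysosomal reductase, for S100a4 Birc5 (0.97), for S100a6 Tyrobp (0.98), an adaptor of myeloid receptors, for S100a10 Cdk2ap2 (0.99), for Anxa5 Commd10 (0.99), for Lgals1 Ap2a2 (0.98), for Lgals3 Prdx6 (0.97) and for Vim the ribosomal protein gene Rps3a1 (0.99). What part the share of each cell type in a library has in the levels of the 10 genes was not tested.

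**Figure D4:**
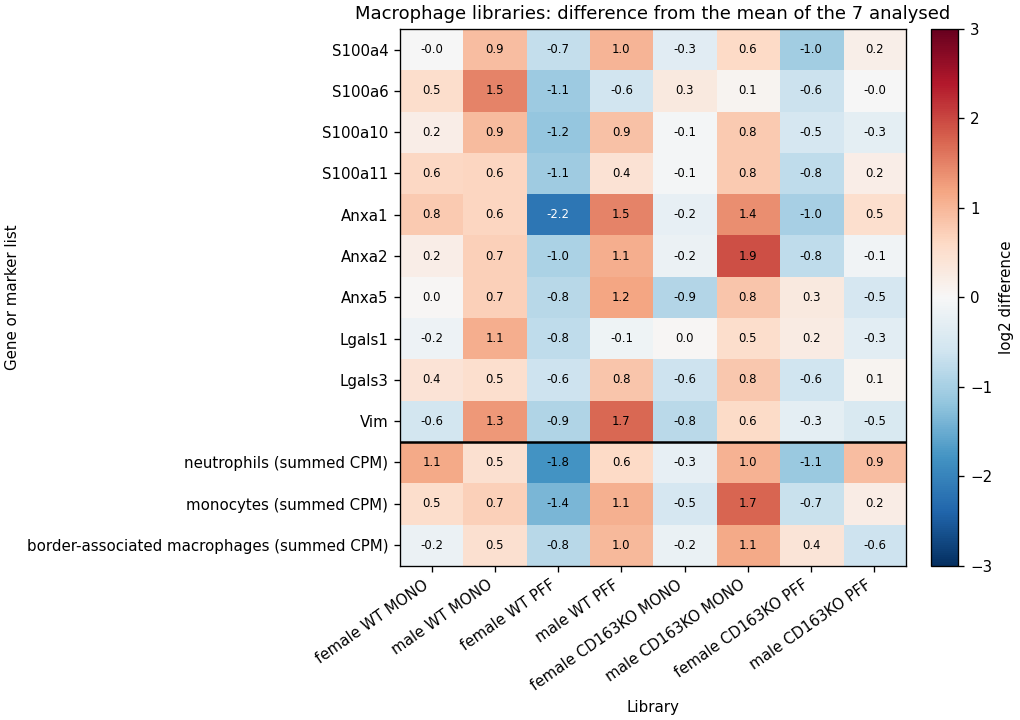
Log2 difference of each of the 8 macrophage libraries from the mean of the 7 analysed (log2(FPKM + 1) for genes, log2(summed CPM + 1) for marker lists, colour scale from -3 to 3). The female WT PFF library is below the mean in all 10 genes and in all 3 lists.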

How the data were processed

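RNA of sorted macrophages and microglia was analysed in 16 libraries, 1 for each combination of population, sex, genotype and treatment, with groups taken from the labels. The authors removed rRNA and low-quality reads, mapped the rest with Bowtie2 and estimated expression with RSEM, and the submitters' processing notes give the build as mm10. The expected counts were deposited by the authors without normalization, and the FPKM deposited by the authors are scaled to transcript length and depth. A transcript missing from a table was set to 0, 99.4% of 27787 transcripts had a symbol in the RefSeq table of GRCm38.p6, and both units were summed per symbol.

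Counts were rounded and tested with edgeR 4.0.16 (quasi-likelihood test, TMM, filterByExpr with a count minimum of 10 and a total of 15, Benjamini-Hochberg, threshold 0.05) in R 4.3.3. The population model had the combination of sex, genotype and treatment as a block (6 residual degrees of freedom), and the models within a population had sex, genotype and treatment (3), with the interaction added (2). Pairs share sex, genotype and treatment. By the study's methods both populations were sorted from suspensions of brain cells. The labels do not say whether the libraries of a pair came from the same mice. SEs were computed from the difference and the F value. The procedure was tested on simulated data. Alternatives used DESeq2 1.42.0, limma 3.58.1 on log2(FPKM + 1) and log2(FPKM + 0.1), RLE or library size scaling, no filter, all 16 libraries, no block, and leaving out each library or pair. Tables used pandas 2.3.3.

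The members and gene lists were chosen with earlier results of these data known. All members are named. Of each further list, genes past the threshold between populations with at least 10 FPKM in a library are named, up to 4 per direction. Likeness is Pearson's r over 7 libraries, with the 3 nearest genes taken. Separate triplicates were not used here, and the labels do not give the batch of mice behind a library, so batch could not enter a model. A limit of 3 counts is taken as not detected. It covers counting error only, since PCR copies count as separate reads.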

Additional observations from a re-analysis of the deposited data

Results flagged for a closer look

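Of 20 sets of 7 values (10 genes in each population), 2 held a library far from the rest on log2(FPKM + 1), where chance gives about 1 in 20. Both were the male WT PFF microglia library, which was one of those that stood apart in composition. Anxa5 had 8.57 FPKM there, against 35.8 to 61.5 FPKM in the other 6 microglia libraries, and the gap to the next library was 0.717 of the whole range. Lgals1 had 3.44 FPKM there, against 13.2 to 21.9 FPKM in the other 6, with a gap of 0.708 of the range. The male CD163KO MONO microglia library, which also stood apart and was not among the 7, had 8.62 FPKM of Anxa5 and 7.96 FPKM of Lgals1, likewise below those ranges. In the flagged library, male WT PFF microglia, the 10 most abundant transcripts took 57.2% of the counts. That library was the lowest of the 7 analysed microglia libraries for 7 of the 10 genes. No effect of treatment, genotype or sex on a member ran one way in every matched pair of macrophages and the opposite way in every pair of microglia.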

How the results depend on the processing

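The 10 members were called higher in macrophages under each of 15 alternatives, with medians between 4.86 and 6.56 on the log2 scale, and with no replicate block, where pairs are not modelled, the count was again 10 (2731 genes in all). No member was called for treatment, genotype, sex or their interaction under any alternative run. Signs were less stable. In macrophages the median of the 10 ran over the alternatives from -0.70 to -0.17 for treatment. It ran from -0.36 to 0.40 for genotype and 0.08 to 0.93 for sex. In microglia these ran from -0.35 to 0.30 for treatment, -0.68 to 0.21 for genotype and -0.62 to 0.35 for sex. For treatment, genotype and sex, all 15 ways of fitting gave the same sign for 6, 1 and 5 members in macrophages. In microglia they did so for 5, 4 and 3. The number of genes called between populations, 2501, was 5895 by library size alone, 4476 with DESeq2, 6243 and 6226 with limma at pseudocounts of 1 and 0.1, and 1821 to 4779 when a pair was left out, the highest without male WT PFF. Without female CD163KO MONO the interaction could not be fitted. Separation of the libraries by population, 9 of 10 members in FPKM, was 10 of 10 in TMM-scaled CPM. At the depth of the microglia libraries S100a4 and S100a6 rest on at most 45 counts.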
